A study of Homo sapiens with 24 samples.

Results

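miR-1296 and miR-2355 are human microRNAs that are each cut from a single hairpin inside an intron of a protein-coding gene. Both arms of both hairpins were followed, which gives 4 mature miRNAs of the 2652 in the count tables and of the 626 with enough counts to be tested: miR-1296-5p (MIMAT0005794), miR-1296-3p (MIMAT0026637), miR-2355-5p (MIMAT0016895) and miR-2355-3p (MIMAT0017950). They were chosen because they were higher after SFPQ loss, so the comparison of siSFPQ with siCtrl is given as a description, with no test. miR-1296-5p and both arms of miR-2355 passed the filter on low counts with or without the siSFPQ libraries. miR-1296-3p passed it only with them.

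The cells were SBC-3, a human small cell lung cancer line. Every group was reverse transfected with 10 nM of 1 reagent using Lipofectamine RNAiMAX and harvested after 72 h, and there were 8 groups of 3 libraries. Among the small interfering RNAs (siRNAs), siSFPQ-2 and siSFPQ-3 targeted SFPQ, siNONO-3 and siNONO-4 targeted NONO, and siCtrl served as the control. Among the antisense oligonucleotides (ASOs), ASO-NEAT1-1047 and ASO-NEAT1-1473 targeted NEAT1, and ASO-Ctrl served as the control. Both control groups are labelled WT and the others as knockdowns. They do not say whether the 3 libraries of a group came from separate cultures, so p-values measure only the spread between these libraries, which may be technical. The tables hold miRNAs only, so the loss of SFPQ, NONO and NEAT1 themselves was not analysed here.

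A primary miRNA transcript folds into a hairpin that the nuclear enzyme Drosha cuts out and the cytoplasmic enzyme Dicer trims to a short duplex of a 5p and a 3p strand. For an intronic miRNA the primary transcript is usually the pre-mRNA of the host gene, and one strand of the duplex is often kept more than the other. SFPQ and NONO are related RNA-binding proteins of the nucleus that meet in paraspeckles, bodies built on the long noncoding RNA NEAT1. The series concerns the regulation of primary miRNAs by SFPQ, and its groups allow each member to be followed after loss of any of the 3.

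On GRCh38, the MIR1296 hairpin lies on the minus strand of chromosome 10 from 63372957 to 63373048, in intron 2 of JMJD1C, which encodes a protein of the Jumonji family of histone demethylases. In GENCODE 29, 2 of 12 JMJD1C transcripts span the hairpin. In the principal transcript of 26 exons the intron is 115553 bases long, and the hairpin starts 7269 bases after the upstream exon. The MIR2355 hairpin lies on the minus strand of chromosome 2 from 207109987 to 207110073, in intron 2 of KLF7, which encodes a Krüppel-like transcription factor. Of 10 KLF7 transcripts, 6 span it. In the principal transcript of 4 exons the intron is 35192 bases long and the hairpin starts 13700 bases after the upstream exon. Neither hairpin overlaps an exon of its host. The nearest other annotated hairpin on the same strand was 4030303 bases from MIR1296 and 159202 bases from MIR2355, so neither lies in a miRNA cluster.

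The sequences show what was counted. The 3 products whose mature sequence is printed have different seeds, the bases 2 to 8 by which a miRNA recognises its targets. Of the 4 members, 3 matched a mature sequence by position in the RefSeq table (GRCh38.p14), and both hairpins matched. Sequences are written 5′ to 3′, and capitals mark the seed of each mature miRNA.
miR-1296-3p: gAGUGGGGcuucgacccuaacc
miR-2355-5p: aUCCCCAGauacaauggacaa
miR-2355-3p: aUUGUCCUugcuguuuggagau
In the hairpins, capitals mark miR-1296-3p in MIR1296, and miR-2355-5p followed by miR-2355-3p in MIR2355.
MIR1296: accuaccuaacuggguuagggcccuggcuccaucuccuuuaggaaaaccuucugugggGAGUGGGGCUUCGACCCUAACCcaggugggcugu
MIR2355: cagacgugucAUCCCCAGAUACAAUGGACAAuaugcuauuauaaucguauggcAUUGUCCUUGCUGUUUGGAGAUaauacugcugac
Among the 2370 mature miRNA names in that table, 0 others shared a seed with any of the 3. The hairpins themselves were unlike. MIR1296 had 57.6% G and C and a predicted folding energy of -50.5 kcal/mol, and MIR2355 had 41.4% and -31.6 kcal/mol. The medians over 1519 hairpins of the table were 52.0% and -36.4 kcal/mol. The genomic positions of the counted products were 63373012 to 63373033 for miR-1296-5p, 63372969 to 63372990 for miR-1296-3p, 207110043 to 207110063 for miR-2355-5p and 207109999 to 207110020 for miR-2355-3p. Each had 1 locus in the tables, and 0 other miRNAs had counts within 10% of a member in every library.

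Libraries held between 2038382 and 4279644 miRNA counts. Of the listed neural and neuroendocrine markers, 8 of 8 were detected (any count) in siCtrl, where their summed level was 107800 to 123700 CPM (counts scaled to the size of the library). miR-9-5p (mean 90610 CPM) and miR-7-5p (16060) made up most of this sum. miR-375-3p was at 0.669, miR-124-3p at 0.125 and miR-153-3p at 2.16 CPM. The liver marker miR-122-5p had 0 counts in all libraries. The summed levels of these lists in siCtrl and in the 6 siSFPQ libraries did not overlap in 4 cases. The neural and neuroendocrine list was at 65300 to 87830 CPM in siSFPQ-2 and 65300 to 78050 in siSFPQ-3. Within it miR-7-5p, miR-9-5p, miR-9-3p, miR-218-5p and miR-128-3p had lower means with both siRNAs. miR-375-3p was higher, at 4.92 and 6.33 CPM, and miR-124-3p and miR-153-3p were higher with siSFPQ-2 and lower with siSFPQ-3. The epithelial list of 5 markers was at 118 to 172 CPM in siCtrl, 499.6 to 561 in siSFPQ-2 and 563 to 686 in siSFPQ-3. Of its 5 markers, the 4 miR-200 family members were higher with both siRNAs, such as miR-141-3p at a mean of 33.2, 234 and 271 CPM in siCtrl, siSFPQ-2 and siSFPQ-3. miR-205-5p, the most abundant in siCtrl, was lower, at 71.8, 38.7 and 30.9 CPM. The stroma and vessel list of 3 went from 936 to 1016 CPM in siCtrl to 644 to 764 over the siSFPQ libraries, and the muscle list of 3 from 332 to 390.3 to 113 to 202. In these lists miR-143-3p, miR-126-3p, miR-1-3p and miR-133a-3p had lower means with both siRNAs. The scarcer miR-145-5p (2.47, 4.37 and 3.93 CPM in siCtrl, siSFPQ-2 and siSFPQ-3) and miR-206 (5.28, 6.59 and 5.67) were higher. In the other 15 libraries the epithelial list was at 128 to 310.0 CPM. The blood list of 6, of which 4 were detected in siCtrl, overlapped at 50.1 to 105 CPM in siCtrl and 28.4 to 67.5 over the siSFPQ libraries. The part of these lists in the members' levels was not tested.

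The siSFPQ libraries lay above the other 18 for every member, as they did for 79 of the 626 tested miRNAs (12.6%). miR-1296-5p, the more abundant arm of its hairpin, was at 19.1, 18.9 and 14.9 CPM in siCtrl replicates 1 to 3 (51, 57 and 27 counts). It was at 182, 194 and 108 CPM in siSFPQ-2 and at 193, 168 and 119 CPM in siSFPQ-3. The lowest siSFPQ library thus lay 2.59-fold above the highest of the others, and replicate 3 was the lowest of each siSFPQ group. The log2 fold change from siCtrl (log2FC, pooled over both siRNAs) was 3.18 ± 0.31 (SE, 6 libraries against 3), a 9.04-fold difference. In such bulk samples, more cells with a miRNA and more of it per cell cannot be told apart.

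miR-1296-3p, the minor arm, was scarce outside the siSFPQ libraries. It had 1, 8 and 0 counts in siCtrl, which is a group sum of 9 (exact 95% Poisson interval 4.12 to 17.1, counting error only). It had 34, 40 and 31 counts in siSFPQ-2 and 33, 48 and 58 in siSFPQ-3, or 7.46 to 14.99 CPM. The other 15 libraries had from 0 to 10 counts, and the highest of all 18 libraries without siSFPQ was at 2.82 CPM. The groups did not overlap, but siCtrl replicate 2 held 8 of the 9 siCtrl counts. The log2FC of 3.22 ± 0.62 became 5.44 without that library.

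miR-2355-5p was at 3.00, 2.33 and 3.30 CPM in siCtrl (8, 7 and 6 counts), at 42.2, 49.5 and 26.0 CPM in siSFPQ-2 and at 34.2, 29.6 and 27.1 CPM in siSFPQ-3. This arm had the widest gap among the members, since its lowest siSFPQ library lay 5.80-fold above the highest of the other 18. Its log2FC was 3.59 ± 0.28, a 12.1-fold difference. miR-2355-3p, the more abundant arm of this hairpin, was at 6.75, 6.31 and 5.50 CPM in siCtrl (18, 19 and 10 counts). It was at 53.7, 57.1 and 40.3 CPM in siSFPQ-2 and at 40.5, 46.9 and 34.1 CPM in siSFPQ-3, with a log2FC of 2.85 ± 0.23, or 7.22-fold. Its lowest siSFPQ library lay 2.69-fold above the highest of the other 18. In both siSFPQ groups replicate 3 was the lowest for both arms of miR-2355, as for miR-1296-5p, while for miR-1296-3p it was the highest with siSFPQ-3.

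**Figure D1:**
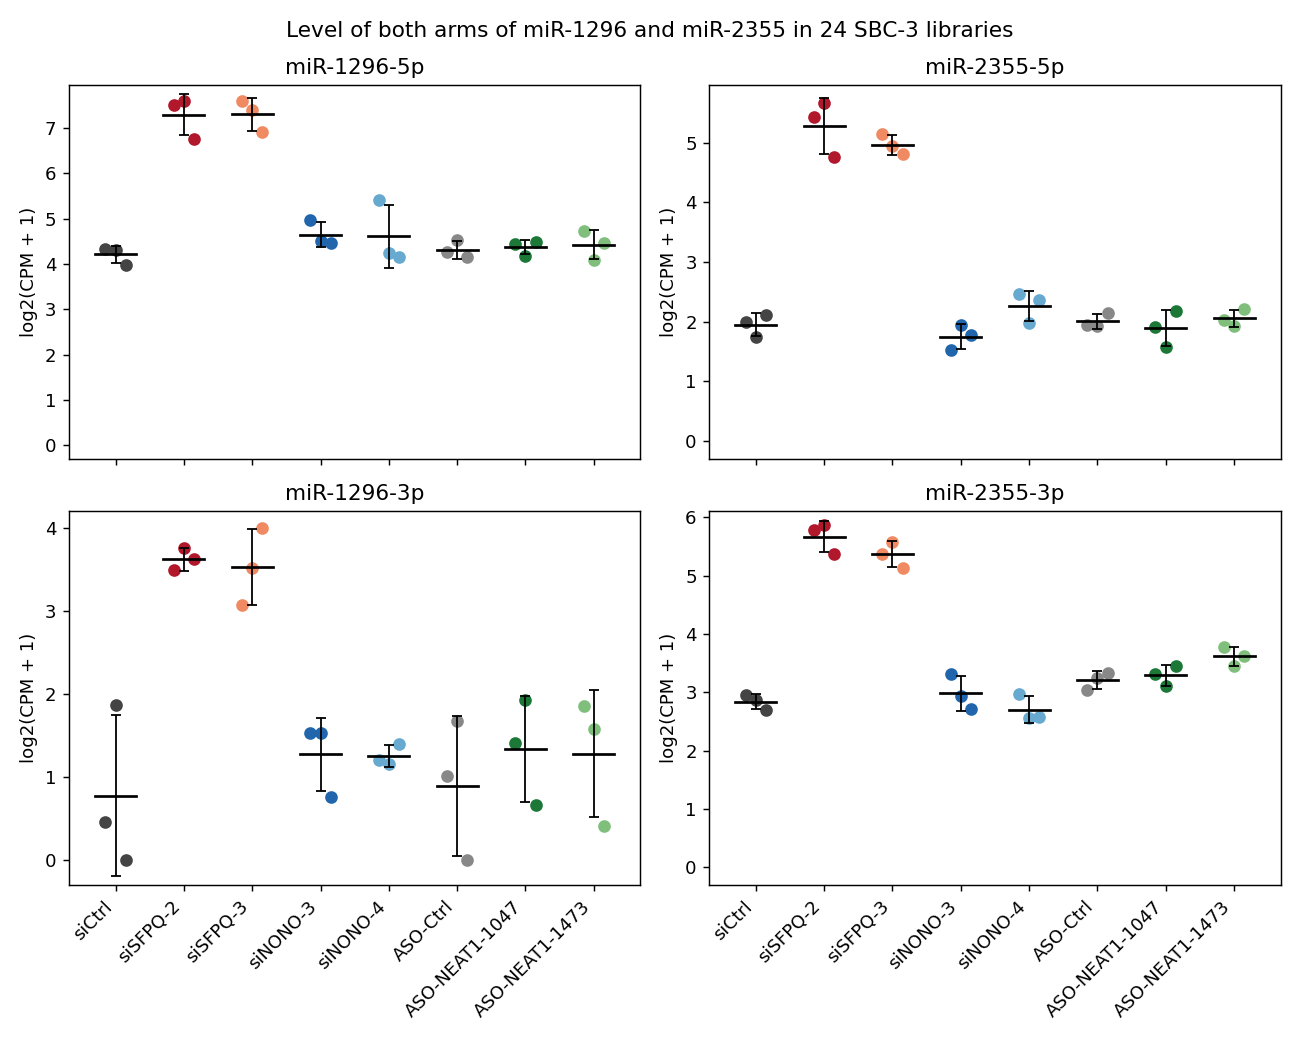
Level of each member in all 24 libraries, as log2(CPM + 1), by group (points: libraries; line and bar: mean and SD of the 3 libraries on that scale). In each panel the 6 siSFPQ points lie above the other 18, from 7.46 CPM upward for miR-1296-3p against at most 2.82 CPM elsewhere.

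Over all miRNAs, 160 of the 626 tested (25.6%) were called higher in this comparison (edgeR's quasi-likelihood test, adjusted p under 0.05). On library totals 252 miRNAs were higher and 67 lower, and on spike-in totals 182 and 90, against 160 and 142 (22.7%) here. The members were chosen on this difference, so their own calls are not given. They ranked 21 (miR-2355-5p), 23 (miR-1296-3p), 25 (miR-1296-5p) and 32 (miR-2355-3p) of 626 by log2FC. The rule set no threshold.

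The 2 siRNAs against SFPQ were compared directly, a difference on which the members were not chosen. The log2FC of siSFPQ-3 against siSFPQ-2 was -0.01 for miR-1296-5p (approximate 95% interval -0.61 to 0.58) and -0.06 for miR-1296-3p (-1.05 to 0.94). It was -0.38 for miR-2355-5p (-0.86 to 0.11) and -0.31 for miR-2355-3p (-0.75 to 0.12). None of the 4 passed edgeR's quasi-likelihood test (adjusted p = 0.746 to 0.999), and 4 of 626 miRNAs, 0.639%, did, all of them lower with siSFPQ-3. All 4 of the members' values lay above 0 when libraries were scaled on their spike-in totals, from 0.17 to 0.53, again without passing. That scaling moved the median of all miRNAs in this comparison from -0.09 to 0.46.

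NONO loss was compared with the same siCtrl libraries that entered the choice of the members. miR-1296-5p was at 30.2, 21.8 and 21.2 CPM in siNONO-3 and at 41.6, 17.96 and 16.9 CPM in siNONO-4. Of these 6 libraries 4 lay above every siCtrl library and 0 below, with siNONO-4 replicate 1 the highest by far. How many of the 626 miRNAs were placed in this way was not counted. The log2FC was 0.50 ± 0.28 (approximate 95% interval -0.08 to 1.08) and did not pass edgeR's quasi-likelihood test (adjusted p = 0.543). Without siNONO-4 replicate 1 it was 0.19. Over all alternatives tried, the adjusted p ranged from 0.369 to 0.910. In this comparison 6 of 626 miRNAs were called higher (0.958%) and 4 lower (0.639%).

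The other members overlapped between siNONO and siCtrl. miR-1296-3p had 7, 4 and 2 counts in siNONO-3 and 5, 5 and 4 in siNONO-4, at 0.695 to 1.89 CPM against 0 to 2.66 in siCtrl. Its log2FC was 0.29 ± 0.76, and differences within the approximate 95% interval of -1.29 to 1.86 were not excluded at this depth. As this arm passed the filter only through the siSFPQ libraries, no p is given for it between groups without siSFPQ. Without siCtrl replicate 2 it was 2.46, and it was -0.21 without siCtrl replicate 1 and -0.18 without siCtrl replicate 3.

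miR-2355-5p was at 1.89, 2.84 and 2.43 CPM in siNONO-3 and at 4.48, 2.95 and 4.12 CPM in siNONO-4, on both sides of the siCtrl values. Its log2FC was 0.08 ± 0.32 (interval -0.58 to 0.74, adjusted p = 0.991). miR-2355-3p was at 8.89, 6.62 and 5.56 CPM in siNONO-3 and at 6.85, 4.92 and 4.95 CPM in siNONO-4, also on both sides of siCtrl. Its log2FC was 0.02 ± 0.24 (interval -0.47 to 0.51, adjusted p = 1). Between the 2 siRNAs against NONO no member passed edgeR's quasi-likelihood test, leaving miR-1296-3p aside. The lowest adjusted p was 0.857 for miR-2355-5p, whose log2FC of siNONO-4 against siNONO-3 was 0.71 ± 0.35. No miRNA of the 626 passed that comparison by edgeR, 38 had an unadjusted p under 0.05, and DESeq2 called 7. Against siCtrl, siNONO-3 alone gave log2FC values of -0.28 to 0.46 for the members and siNONO-4 alone -0.15 to 0.53. In either direction 2.56% and 0.958% of miRNAs were called, with no member among them, leaving miR-1296-3p aside.

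NEAT1 loss was compared with its own control, with no library in common with the choice of the members. miR-1296-5p was at 18.2, 22.2 and 16.8 CPM in ASO-Ctrl, at 20.8, 17.2 and 21.4 CPM in ASO-NEAT1-1047 and at 25.3, 15.9 and 21.2 CPM in ASO-NEAT1-1473. These groups overlapped, and the log2FC was 0.09 ± 0.27 (interval -0.47 to 0.65, adjusted p = 0.943). miR-1296-3p had 4, 7 and 0 counts in ASO-Ctrl, 6, 10 and 2 in ASO-NEAT1-1047 and 6, 5 and 1 in ASO-NEAT1-1473. Its log2FC of 0.62 ± 0.71 (interval -0.84 to 2.09) rested on few counts. It was 1.51 without ASO-Ctrl replicate 2 and 0.04 without ASO-Ctrl replicate 3.

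miR-2355-5p was at 2.82, 2.81 and 3.41 CPM in ASO-Ctrl, at 2.78, 1.97 and 3.51 CPM in ASO-NEAT1-1047 and at 3.06, 2.79 and 3.64 CPM in ASO-NEAT1-1473, again overlapping. The log2FC was -0.03 ± 0.29 (interval -0.63 to 0.57, adjusted p = 0.988). miR-2355-3p was at 7.19, 8.44 and 9.09 CPM in ASO-Ctrl, at 8.88, 7.61 and 9.94 CPM in ASO-NEAT1-1047 and at 12.7, 9.96 and 11.2 CPM in ASO-NEAT1-1473. Here 4 of the 6 ASO-NEAT1 libraries lay above every control library, and all 3 of ASO-NEAT1-1473 were among them. For how many of the 626 miRNAs this holds was not counted. The log2FC was 0.28 ± 0.21 (interval -0.16 to 0.72, adjusted p = 0.908) for both ASOs. It was 0.45 ± 0.25 (adjusted p = 0.605) for ASO-NEAT1-1473 alone and 0.10 for ASO-NEAT1-1047 alone. Between ASO-NEAT1-1473 and ASO-NEAT1-1047 the log2FC ran from -0.12 for miR-1296-3p to 0.36 for miR-2355-3p (interval -0.15 to 0.86). Leaving miR-1296-3p aside, no member passed edgeR's quasi-likelihood test there (adjusted p = 0.954 to 0.993). By edgeR's quasi-likelihood test 0 of 626 miRNAs (0%) passed for both ASOs together, 19 had an unadjusted p under 0.05, and DESeq2 called 0. None (0%) passed for either ASO alone or between the ASOs.

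**Figure D2:**
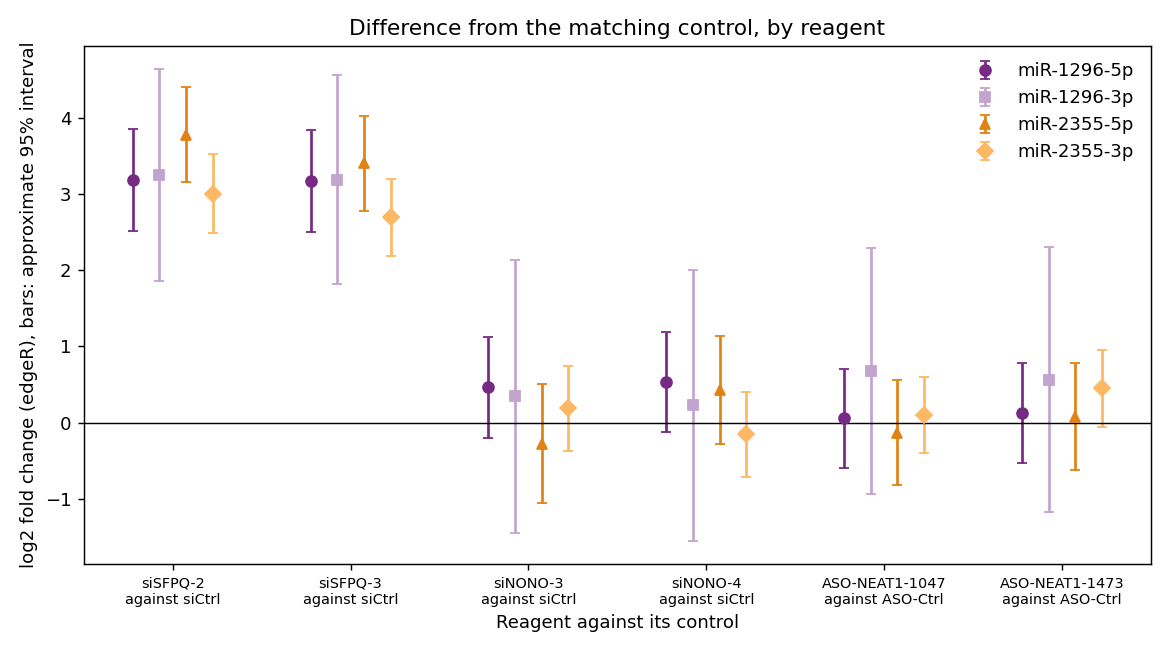
log2 fold change of the 4 members with each reagent against its own control, from edgeR (points), with approximate 95% intervals (bars). The siSFPQ values, on which the members were chosen, lie between 2.69 and 3.78. The 16 others lie between -0.28 and 0.68, and each of their intervals includes 0. For miR-1296-3p this decides nothing, as it passed the filter only through the siSFPQ libraries.

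Between the 2 controls no member passed edgeR's quasi-likelihood test, leaving miR-1296-3p aside. The log2FC of ASO-Ctrl against siCtrl, which shares siCtrl with the choice of the members, was 0.10 for miR-1296-5p, -0.15 for miR-1296-3p, 0.09 for miR-2355-5p and 0.40 for miR-2355-3p (adjusted p = 0.755 to 0.978 for the members other than miR-1296-3p, against 3 of 626 miRNAs, 0.479%, called in either direction). The siSFPQ groups headed the order of all 8 groups for each member. Their means with SD (n = 3) were 161 ± 46.6 and 160.1 ± 37.8 CPM for miR-1296-5p (siSFPQ-2, then siSFPQ-3), 11.4 ± 1.18 and 10.99 ± 3.79 for miR-1296-3p, 39.3 ± 12.1 and 30.3 ± 3.56 for miR-2355-5p, and 50.4 ± 8.92 and 40.5 ± 6.40 for miR-2355-3p. Of these 4 pairs, that of miR-2355-3p alone differed by more than the larger SD, by 9.86 CPM. For both arms of miR-1296 and for miR-2355-5p, the 6 groups without siSFPQ formed an order in which no neighbouring means differed by more than the larger SD. For miR-1296-5p it ran from siNONO-4 (25.5 ± 14.0 CPM, SD, n = 3) over siNONO-3, ASO-NEAT1-1473, ASO-NEAT1-1047 and ASO-Ctrl to siCtrl (17.6 ± 2.40). For miR-1296-3p it ran from ASO-NEAT1-1047 (1.69 ± 1.12 CPM) over ASO-NEAT1-1473, siNONO-3, siNONO-4 and ASO-Ctrl to siCtrl (1.01 ± 1.44). The order for miR-2355-5p went from siNONO-4 (3.85 ± 0.798 CPM) over ASO-NEAT1-1473, ASO-Ctrl, siCtrl and ASO-NEAT1-1047 to siNONO-3 (2.39 ± 0.479). miR-2355-3p was the exception, with ASO-NEAT1-1473 (11.3 ± 1.35 CPM) above ASO-NEAT1-1047 (8.81 ± 1.17) by more than the larger SD, though not by edgeR's test, as given with the NEAT1 comparison. ASO-Ctrl, siNONO-3, siCtrl and siNONO-4 (5.57 ± 1.11) followed without such a gap. The SD of these single groups rests on 3 libraries.

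The arms of a hairpin were compared within each library, which needs no scaling between libraries. In miR-1296 the 5p arm made up nearly all counts: 88.8% to 96.3% of both arms in the 6 siSFPQ libraries and 85.9% to 100% in the other 18. The medians were 94.0% and 93.9%. The log2FC with siSFPQ of 3.18 for the 5p arm and 3.22 for the 3p arm were close, but on leaving out single libraries the 5p value ran from 3.04 to 3.30 and the 3p value from 2.76 to 5.44, the last without siCtrl replicate 2. The siCtrl libraries held 27 to 65 counts of the hairpin each, and in siCtrl replicate 3 the exact 95% binomial interval of the 5p share ran from 87.2% to 100% (counting error only).

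In miR-2355 the 3p arm was the larger one in all 24 libraries, but less so with siSFPQ. The 5p share was 30.8%, 26.9% and 37.5% in siCtrl, 44.0%, 46.5% and 39.2% in siSFPQ-2 and 45.8%, 38.7% and 44.3% in siSFPQ-3. All 6 siSFPQ libraries thus lay above the 3 siCtrl libraries, the nearest values being 38.7% and 37.5%. The larger fold difference of the 5p arm comes from the same counts. How many other hairpins separate in this way was not counted. With only 16 to 26 counts of this hairpin in each siCtrl library, the interval of replicate 3 ran from 15.2% to 64.6%. As both arms entered the choice of the members, this difference was not tested. The siNONO-4 libraries, at 37.5% to 45.5%, overlapped with siSFPQ, while siNONO-3 lay at 17.5% to 30.4%.

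For the other targets the arm ratio of miR-2355 was tested as log2 of 5p over 3p counts, with 0.5 added to each. Over the 6 siNONO libraries the mean was -1.003, against -1.06 in siCtrl. The difference was 0.06 (exact two-sided permutation test, p = 0.833, adjusted p = 0.833 over 2 tests). The siRNAs lay on both sides of siCtrl, with means of -1.485 in siNONO-3 and -0.521 in siNONO-4. As the test pooled them, it does not show that either left the ratio unchanged. Over the 6 ASO-NEAT1 libraries the mean ratio was -1.72, against -1.41 in ASO-Ctrl. This difference of -0.31 had p = 0.0476 by the exact two-sided permutation test, where the smallest possible p is 0.0238, and did not pass after adjustment (adjusted p = 0.0952). The 5p share was 25.0% to 28.2% in ASO-Ctrl, 20.6% to 26.1% in ASO-NEAT1-1047 and 19.4% to 24.4% in ASO-NEAT1-1473. The miR-1296 ratio was not tested, because miR-1296-3p fell below the minimum count that this test required in every library compared. In each comparison a control library had 0 counts of it.

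**Figure D3:**
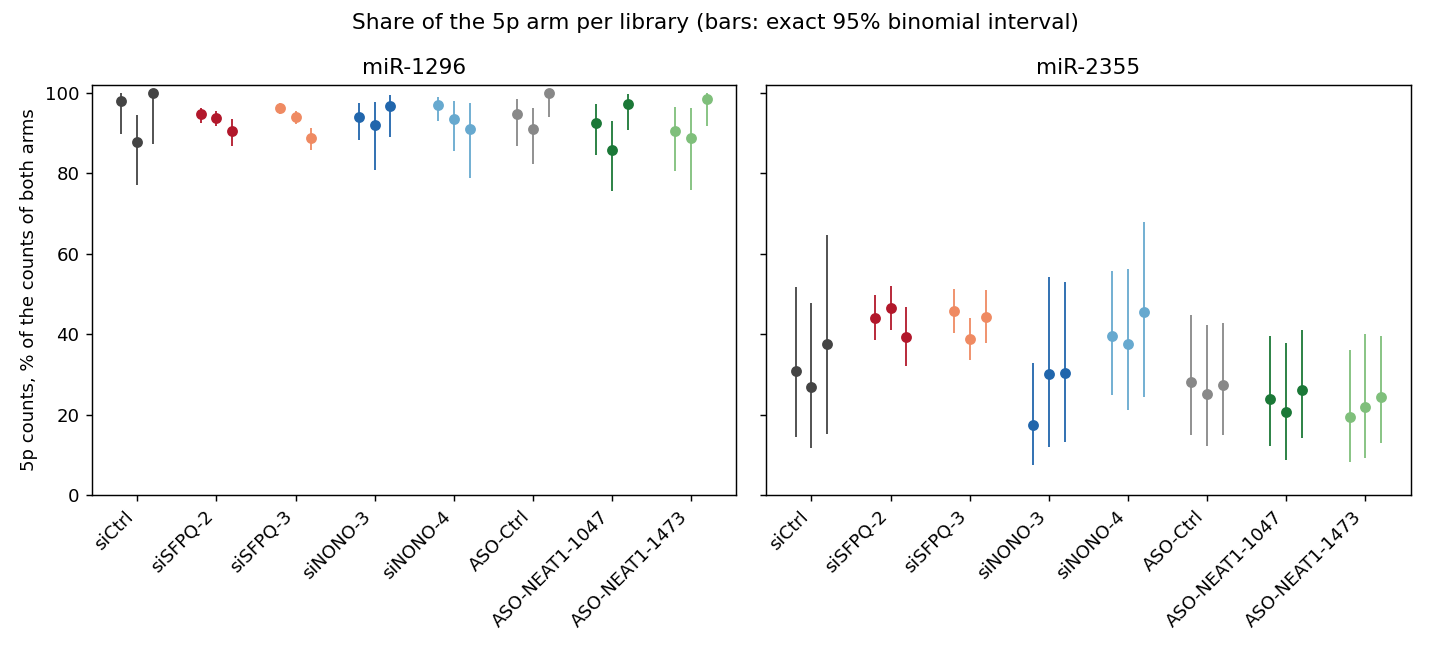
Share of the 5p arm in the counts of both arms (%), per library and group, for each hairpin; bars are exact 95% binomial intervals. For miR-1296 every point lies at 85.9% or above; for miR-2355 the siSFPQ points lie at 38.7% to 46.5% and the siCtrl points at 26.9% to 37.5%.

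Other miRNAs from single intronic hairpins were listed from the annotation: hairpins wholly in an intron of a protein-coding gene on the same strand, with no other hairpin within 10000 bases. The list held 245 tested miRNAs from 173 hairpins besides the members. With siSFPQ, 71 of them (29.0%) were called higher and 46 (18.8%) lower, against 25.6% and 22.7% of all tested miRNAs, and the median log2FC was 0.12 against 0.02 over all. The share of higher calls in the list was thus near the background. On library totals 108 (44.1%) were higher and 26 (10.6%) lower, against 40.3% and 10.7% of all miRNAs. With siNONO 0 were higher and 1 (0.408%) was lower, against 0.958% and 0.639% of all tested miRNAs. With ASO-NEAT1 0 passed in either direction, as over all tested miRNAs (0%). The siNONO call, named after its value was seen, was miR-676-3p of the EDA intron (log2FC -1.09, edgeR adjusted p = 0.00970).

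The 5 most abundant miRNAs of this list, by mean CPM, did not share the members' direction with siSFPQ. miR-335-5p (log2FC -0.86) and miR-335-3p (-1.41) of the MEST intron and let-7g-5p of WDR82 (-0.89) fell (edgeR adjusted p = 0.000737, 1.43e-08 and 0.00134). The product of the 5p arm of MIR10B in HOXD3 (-0.30, adjusted p = 0.206) and miR-26a-5p of CTDSP2 (-0.21, adjusted p = 0.158) did not pass. None of the 5 passed with siNONO or ASO-NEAT1 (adjusted p = 0.547 to 1). With the members included, the list had 249 miRNAs, in which the members ranked 7, 8, 10 and 15 by their log2FC with siSFPQ. The members were chosen on this difference.

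**Figure D4:**
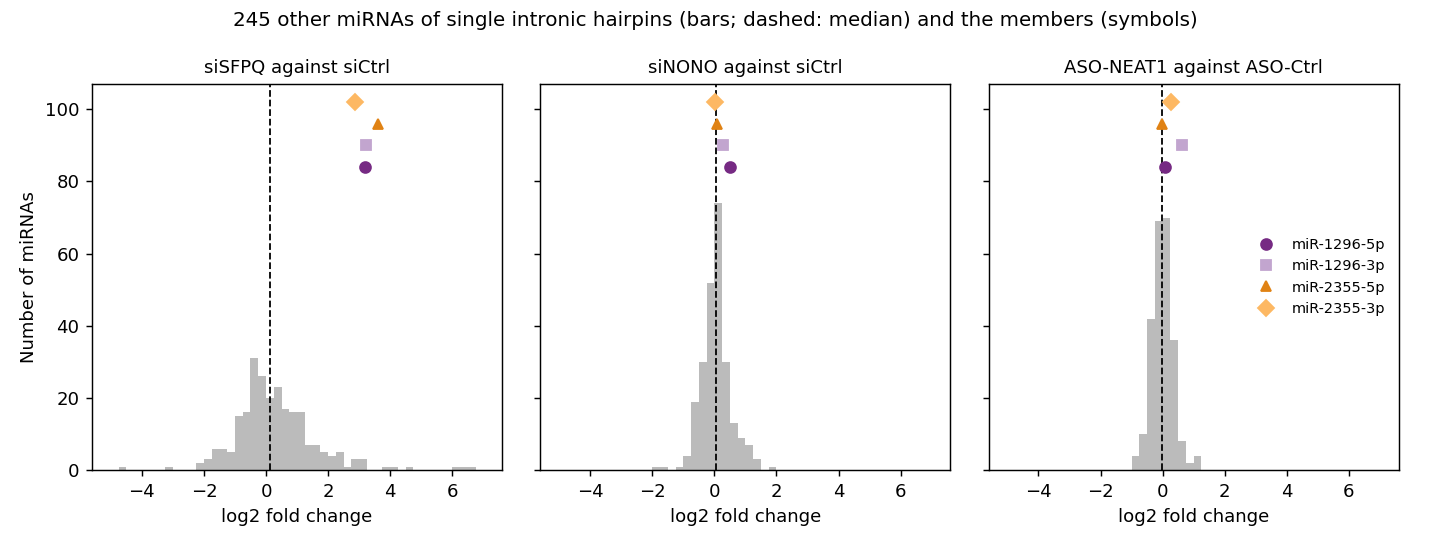
Distribution of log2 fold changes of the 245 other miRNAs from single intronic hairpins (grey bars, number of miRNAs; dashed line, median) in 3 comparisons, with the members as symbols placed above the bars at arbitrary height. The members, chosen on the first comparison, lie at 2.85 to 3.59 there and at -0.03 to 0.62 in the other two.

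The miRNAs whose levels over the 24 libraries were most like those of a member were found by Pearson's r of log2 CPM, given as a description. These r values rest mainly on the gap between the siSFPQ libraries and the rest, and all miRNAs share libraries and depth. For miR-1296-5p they were miR-302b-3p and miR-302c-3p (r = 0.970 each), miR-302a-5p (0.967), miR-629-5p of the TLE3 intron (0.964) and miR-2355-5p (0.964). miR-302b-3p and miR-302c-3p are near-identical, as are miR-181a-3p and miR-181c-3p, so shared reads may not separate them. Over the 18 libraries without siSFPQ, r with miR-2355-5p was 0.13. For miR-1296-3p they were miR-629-3p (0.891), miR-424-3p (0.889), the 3p product of MIR21 (0.877), miR-629-5p (0.873) and the 3p product of MIR548AZ (0.869).

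miR-2355-5p was most like miR-302b-3p and miR-302c-3p (0.972 each), miR-302a-5p (0.970), the 3p product of MIR21 (0.968) and miR-1296-5p (0.964). miR-2355-3p was most like the 3p product of MIR21 (0.969), miR-181a-3p and miR-181c-3p (0.952 each), miR-1296-5p (0.946) and miR-302b-3p (0.946). Both arms of miR-2355 had r = 0.945 over all libraries and -0.04 over the 18 without siSFPQ. Both arms of miR-1296 had 0.858 and 0.271.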

How the data were processed

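Small RNA libraries of 24 SBC-3 samples were made from 100 ng of total RNA with spike-ins and a QIAseq kit, per the labels' protocols. The authors deposited raw counts per mature miRNA locus (2883) and spike-in (52), and the file headers name featureCounts 2.0.3. Tools in the submitters' processing notes are UMI-tools 1.1.1, Bowtie 1.3.0, DESeq2 1.38.1, Trimmomatic 0.39 and Subread 2.0.3, with the build hg38. No source used here says whether molecular identifiers were collapsed, so intervals of counts cover counting error only. Groups came from sample titles. The locus with the largest total was kept per mature miRNA, named by position (tolerance 3 bases). All 24 replicate pairs differed beyond sampling noise.

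Counts were fitted with edgeR 4.0.16 (limma 3.58.1, R 4.3.3): filterByExpr with a minimum count of 10, TMM factors, 1 model of 8 groups (16 residual degrees of freedom), quasi-likelihood test, Benjamini-Hochberg over 626 miRNAs, threshold 0.05. CPM used TMM-scaled library sizes. The log2FC of a target is the mean of both reagents minus the control, its SE is log2FC over the square root of F, and intervals are approximate. Arm ratios used exact permutation tests (SciPy 1.17.1). Folding energies came from RNAfold 2.7.2. Alternatives were other scalings and filters, a replicate block, only the compared groups, DESeq2 1.42.0 and leaving out single libraries.

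Members and lists were chosen with earlier results of these data known. Named were the members, miRNAs sharing a seed, the 5 most like each member and the 5 most abundant single intronic miRNAs.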

Additional observations from a re-analysis of the deposited data

How the results depend on the processing

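In 346 alternative fits of the members outside siSFPQ against siCtrl, 0 passed (lowest adjusted p = 0.295, DESeq2 included) and 61 changed side of 0. These fits include miR-1296-3p. Between groups without siSFPQ its lack of a call decides nothing, as it passed the filter only through the siSFPQ libraries. For siNONO against siCtrl, miR-2355-5p was -0.03 at a mean of at least 10 CPM, and miR-2355-3p was -0.03 with RLE size factors or DESeq2, -0.05 on spike-in totals and -0.09 at 10 CPM. For ASO-NEAT1, miR-2355-5p was 0.0012 with RLE, 0.01 at 10 CPM and 0.0018 with DESeq2. For ASO-Ctrl against siCtrl at 10 CPM, miR-1296-5p was -0.03 and miR-2355-5p -0.04. miR-1296-3p had no value at 10 CPM, nor, with siNONO or ASO-NEAT1, in fits of only the compared groups, nor had miR-2355-5p with siNONO there.

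For siSFPQ-3 against siSFPQ-2, miR-1296-5p was 0.10 with RLE or DESeq2, 0.12 on library totals, 0.53 on spike-in totals, 0.03 with no filter, 0.07 at 10 CPM and 0.11 with only the compared groups. miR-1296-3p was 0.05 with RLE, 0.08 on library totals, 0.49 on spike-in totals, 0.0046 with no filter and 0.06 with DESeq2 or only the compared groups. miR-2355-5p was 0.17 and miR-2355-3p 0.24 on spike-in totals.

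For siSFPQ against siCtrl, on which the members were chosen, they kept their direction in all fits. As these fits draw on the same libraries as that choice, this is a description only. Library totals, which moved the median of all miRNAs from 0.02 to 0.47, gave 3.63 for miR-1296-5p, 4.05 for miR-2355-5p and 3.30 for miR-2355-3p, and 108 higher (44.1%) and 26 lower (10.6%) single intronic miRNAs, against 40.3% and 10.7% of all, with 7 higher for siNONO (2.86%, against 2.72% of all); the cause was not tested. Among all miRNAs, siNONO calls were 10, or 21 on library totals, 6 on spike-in totals, 19 with no filter, 24 with the replicate block, 3 with only the compared groups and 20 with DESeq2.

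Replicate numbers were not taken as pairs, since the labels give no shared source. Of the same-numbered libraries, 52 of 84 pairs correlated over 0.1 (7 of 9 in the ASO groups, r over all groups from -0.419 to 0.619). These values do not decide whether the numbers mark a shared source. The tests of the arm ratio took no account of replicate numbers. The replicate block gave log2FC of 0.47 (siNONO) and 0.09 (ASO-NEAT1) for miR-1296-5p and changed no call of a member.

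Leaving out single libraries gave the ranges of log2FC below, with 0 members passing outside siSFPQ against siCtrl. For miR-1296-3p this counts only between the siSFPQ siRNAs, as it passed the filter only through their libraries. For siSFPQ against siCtrl, miR-1296-3p ranged from 2.76 to 5.44, the latter without siCtrl replicate 2. For siNONO, miR-1296-3p ranged from -0.21 to 2.46 (without siCtrl replicate 2), miR-2355-5p from -0.11 to 0.12 and miR-2355-3p from -0.13 to 0.06. For ASO-NEAT1, miR-1296-5p ranged from -0.01 to 0.18, miR-1296-3p from 0.04 to 1.51 and miR-2355-5p from -0.10 to 0.05. Between the siSFPQ siRNAs, miR-1296-5p ranged from -0.15 to 0.23 and miR-1296-3p from -0.29 to 0.24. Between the siNONO siRNAs they ranged from -0.41 to 0.34 and -0.44 to 0.20, between the NEAT1 ASOs from -0.06 to 0.26 and -0.59 to 0.52, and between the controls from -0.06 to 0.15 and -1.08 to 2.04, with -0.08 to 0.12 for miR-2355-5p. Differences in log2 arm ratio ranged for miR-1296 from -1.49 to 0.02 (siNONO) and -1.70 to 0.12 (ASO-NEAT1), and for miR-2355 from -0.10 to 0.29 (siNONO).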
